A study of Mus musculus with 4 samples.

Results

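Aortic cells of Sting knockout (KO) mice were set against those of wild type (WT) mice without angiotensin II. The members are all cells of both saline libraries, 21314 of the 38316 cells in the series: 9261 from WT saline and 12053 from KO saline. UMIs (unique molecular identifiers, each standing for 1 captured transcript) were summed over each library and within 3 marker gates. The smooth muscle cell (SMC) gate took cells with at least 3 Myh11 UMIs. The fibroblast gate took cells with at least 10 UMIs of Dcn and Lum together and at most 1 of Myh11. The phagocyte gate took cells with at least 10 UMIs of Lyz2, C1qa and C1qb together and fewer than 10 of Dcn and Lum. Each library came from the thoracic aortas of 3 pooled mice, so a group is 1 sample of pooled animals. Saline mice of both genotypes ate a normal diet; the Sting-KO mice carried the knockout in the whole body, per the series title. No source used here gives the age, sex or strain, the hour of harvest or the part of the gene that was altered. The AngII libraries, in which mice ate a high fat diet for 5 weeks and received AngII for 7 days, are cited only beside the saline values.

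STING, encoded by Tmem173, is an adaptor of the endoplasmic reticulum. The enzyme cGAS makes the messenger cGAMP when it meets DNA in the cytosol, and STING that has bound cGAMP recruits the kinase TBK1, which activates the transcription factor IRF3. Type I interferon and inflammatory cytokines follow, and interferon in turn induces a broad set of interferon-stimulated genes. Smooth muscle cells form the contractile middle layer of the aorta, fibroblasts its outer layer, and resident macrophages live mainly in that outer layer.

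With 1 library a side no test was possible and no difference has a replicate check. Levels are CPM, the UMIs of a gene per 1000000 UMIs of the library or gate, and differences are log2 ratios of KO saline over WT saline, so that 1 is a 2-fold higher level in KO saline. Intervals are 95% and cover counting error only: they treat each UMI as independent and hold neither the spread between mice nor that between library preparations. UMI totals were 60064038 in WT saline and 76841976 in KO saline, with medians of 5888 and 6071 UMIs per cell. The libraries shared 134 cell barcodes, 1.45% of WT saline and 1.11% of KO saline. Summed fibroblast markers stood at 29590 and 30340 CPM in the fibroblast gate of WT and KO saline. Summed phagocyte markers stood at 31030 and 23910 CPM in the phagocyte gate. Both sums hold the gate genes, so they do not check the gates. Of markers not used for gating, Pi16 stood at 5005 and 5268 CPM in the fibroblast gate and 42.0 and 67.9 CPM in the SMC gate. Csf1r stood at 908 and 800.5 CPM in the phagocyte gate and 2.98 and 0.866 CPM in the SMC gate.

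The targeted gene came first. Tmem173 (chromosome 18, 35733679 to 35740554, minus strand, GRCm38, the build also called mm10) had 105 UMIs in WT saline and 102 in KO saline, or 1.75 and 1.33 CPM (log2 ratio −0.40, interval −0.80 to 0.01). The levels with AngII were 7.03 CPM in WT and 6.10 CPM in KO. By gate there were 37 and 52 UMIs among SMC, 29 and 27 among fibroblasts and 39 and 8 among phagocytes of WT and KO saline. The transcript was thus not depleted in the library labelled KO. Because counting used a tag at the 3′ end and the altered part is not known, this level checks neither the label nor the loss of the protein.

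Of the 149 genes measured within 5 Mb of Tmem173, 80 could be compared in the SMC gate. Their median log2 ratio was −0.05, and past 1.5-fold 5 stood higher and 2 lower, with 0 past 2-fold. Over all genes compared in that gate, 6.15% stood higher and 5.17% lower at 1.5-fold. In the fibroblast gate 47 of the 149 could be compared. Of these 4 were higher and 3 lower at 1.5-fold (10.3% and 8.24% over all genes of the gate). The 2 past 2-fold were Hbegf, a growth factor of the EGF family (7.78 and 29.1 CPM in WT and KO saline, log2 ratio 1.90), and Ecscr, an endothelial surface protein (28.7 and 63.0 CPM, 1.14).

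The share of cells in the gates differed between the libraries. Fibroblast-gate cells made up 11% of WT saline (1021 cells, exact binomial interval 10.4% to 11.7%) and 4.2% of KO saline (506 cells, 3.85% to 4.57%). Phagocyte-gate cells made up 3.08% (285 cells, 2.74% to 3.45%) and 0.689% (83 cells, 0.549% to 0.853%). SMC-gate cells were 81.7% (7563 cells) and 86.1% (10372 cells). Of these, 173 in WT saline and 460 in KO saline also held at least 10 UMIs of Dcn and Lum together. That is 1.87% and 3.82% of the libraries. The Myh11 limit keeps such cells out of the fibroblast gate, and their part in the difference of fibroblast shares was not tested. Cells in no gate were 4.60% and 9.21%, and those of KO saline were shallow, with a median of 2605.5 UMIs against 3552 in WT saline. The KO share over the WT share was 0.381 for fibroblasts and 0.224 for phagocytes; after thinning every cell to 3000 UMIs it was 0.478 and 0.240. For SMC it was 1.05, and it turned to 0.902 with stricter gates, so no direction can be read for SMC. The shares follow enzymatic digestion and a viability sort, and with 1 library a side the part of cell recovery in them cannot be told apart from that of genotype.

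**Figure D1:**
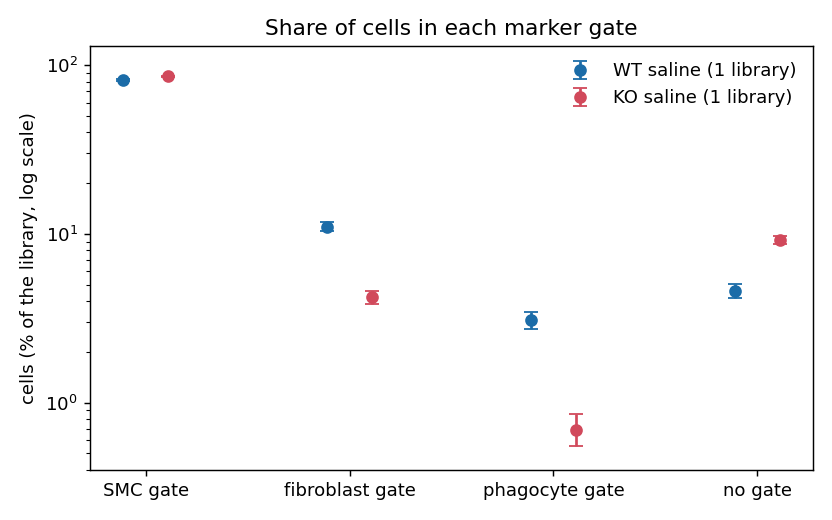
Share of cells in each marker gate (% of all cells of the library, log scale) in WT saline and KO saline, 1 library each; bars are 95% exact binomial intervals for counting error. Fibroblast-gate cells stand at 11% and 4.2% and phagocyte-gate cells at 3.08% and 0.689%, while cells in no gate stand at 4.60% and 9.21%.

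Purity of the gates differed too. Of the KO saline fibroblast-gate cells 33.8% (171 of 506, interval 29.7% to 38.1%) held more than 20 UMIs of the muscle genes Acta2, Tagln and Myl9, against 3.53% (36 of 1021, 2.48% to 4.85%) in WT saline. All 8 SMC markers were detected in the fibroblast gate of both libraries, and their summed level was 1452 CPM in WT saline and 4651 CPM in KO saline. The 2-fold counts, some gene lists and the beta-actin gene Actb are therefore also given for fibroblasts without the cells above 20 muscle UMIs. This limit was chosen after the data were seen. Other fibroblast values include those cells unless another setting is named. In the SMC gate, summed phagocyte markers were at 106 and 22.8 CPM and summed endothelial markers at 92.4 and 29.5 CPM. Pecam1 alone accounted for 89.5 and 25.3 CPM of the endothelial sum.

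Smooth muscle cells gave the deepest comparison. A gene was compared where its mean level would give at least 30 UMIs in the smaller library and where it was not plainly the RNA of another gate. Of 11633 such genes in the SMC gate, 184 (1.58%) were at least 2-fold higher in KO saline and 162 (1.39%) at least 2-fold lower. At the 1.5-fold limit used for gene lists, 6.15% were higher and 5.17% lower. The lower genes included targets of glucocorticoid hormone and metallothioneins, and the higher ones included some genes of the circadian clock.

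Glucocorticoids enter cells and act through the glucocorticoid receptor, a transcription factor that induces Fkbp5, Tsc22d3, Zbtb16, Per1 and metallothioneins among many others. Metallothioneins are small zinc- and copper-binding proteins whose genes also answer to metals. Of 15 such genes compared in the SMC gate 8 were at least 1.5-fold lower in KO saline and 1 was higher, with a median log2 ratio of −1.69 where the median over all genes was −0.01. Mt1, the most abundant of them, stood at 5788 CPM in WT saline, 1128 in KO saline, 714 in WT AngII and 1019 in KO AngII (log2 ratio between the saline libraries −2.36, interval −2.37 to −2.35). WT saline was thus the library that stood apart, with KO saline close to both AngII libraries. Mt2 was likewise highest in WT saline, at 1456, 277, 230 and 310 CPM (−2.39). Fkbp5, a chaperone of the glucocorticoid receptor and one of its targets, stood at 53.4 CPM in WT saline, 3.72 in KO saline, 3.68 in WT AngII and 5.56 in KO AngII (−3.84, interval −4.03 to −3.66). Sult1a1, a sulfotransferase, stood at 75.1, 12.0, 8.84 and 6.99 CPM (−2.64). The kinase gene Pdk4, which restrains pyruvate oxidation, had a log2 ratio of −2.35. Nfkbia, the inhibitor of NF-kB, was the 1 member that was higher (102 and 194.5 CPM, 0.93).

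The promoters of both metallothionein genes are shown because they carried more UMIs than any other gene at least 2-fold lower in smooth muscle. They are the 250 bases before the RefSeq start (GRCm38.p6, plus strand, 5′ to 3′). Capitals mark the core of the metal response element, TGCACNC or TGCGCNC on either strand, where N is any base.
Mt1: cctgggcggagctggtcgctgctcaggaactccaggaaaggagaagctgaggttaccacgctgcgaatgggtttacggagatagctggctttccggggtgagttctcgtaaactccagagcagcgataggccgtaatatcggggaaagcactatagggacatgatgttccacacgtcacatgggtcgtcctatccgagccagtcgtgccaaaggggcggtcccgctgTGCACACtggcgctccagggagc
Mt2: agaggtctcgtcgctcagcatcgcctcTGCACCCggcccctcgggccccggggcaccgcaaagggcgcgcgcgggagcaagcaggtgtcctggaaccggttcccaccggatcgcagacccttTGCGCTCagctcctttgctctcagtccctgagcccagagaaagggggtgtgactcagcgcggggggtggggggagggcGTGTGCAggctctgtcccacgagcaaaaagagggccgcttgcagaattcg
The Mt1 window (chr8:94178839-94179088) holds 1 match and the Mt2 window (chr8:94172368-94172617) holds 3. The core is common: 28.5% of 12443 promoters of genes in the files hold at least 1 match in a window of this length and 7.90% hold more than 1. Matches are letters in a window and not shown to be sites.

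The lower level of Mt1 ran through the whole SMC population. With every cell thinned to 4000 UMIs (6762 WT saline and 8207 KO saline cells; 801 and 2165 shallower cells left out), the median SMC held 20 Mt1 UMIs in WT saline and 3 in KO saline, against unthinned medians of 36 and 6. The 10th percentile of WT saline was 9 UMIs, equal to the 90th percentile of KO saline. The medians with AngII were 2 UMIs in both genotypes. Acta2, the smooth muscle actin, had medians of 78 and 92 in the same thinned saline cells.

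**Figure D2:**
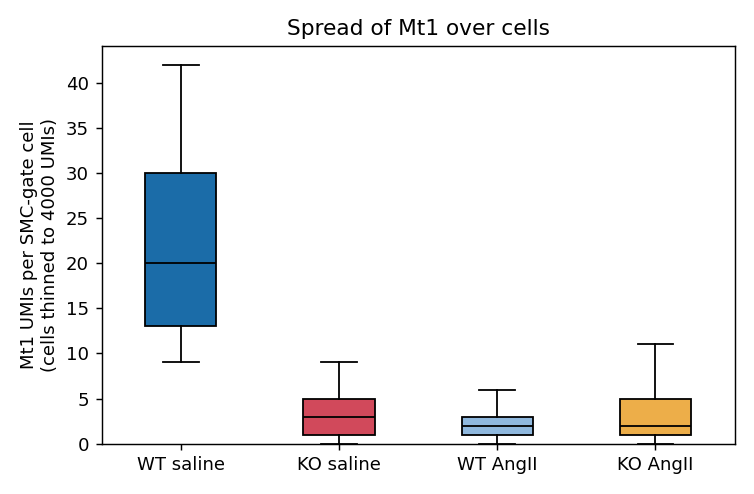
Mt1 UMIs per SMC-gate cell after thinning each cell to 4000 UMIs, in the 4 libraries; boxes span the 25th to 75th percentile of cells, lines are medians and whiskers reach the 10th and 90th percentiles. The WT saline median is 20 UMIs, and those of KO saline, WT AngII and KO AngII are 3, 2 and 2.

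The circadian clock turns on activators, BMAL1 (Arntl) with CLOCK or NPAS2, and on repressors of the Per, Cry and Rev-erb (Nr1d1, Nr1d2) families whose transcripts peak at different hours. Of 18 clock genes compared in the SMC gate 4 were at least 1.5-fold higher in KO saline and 4 at least 1.5-fold lower, with a median of −0.22. Nr1d1 stood at 22.1 CPM in WT saline, 118 in KO saline, 60.7 in WT AngII and 86.4 in KO AngII (log2 ratio 2.42, interval 2.34 to 2.51). Dbp, an output activator, stood at 13.7, 58.7, 11.4 and 10.9 CPM (2.10), so that here KO saline was the library that stood apart. Nr1d2 stood at 10.4, 37.4, 16.8 and 25.9 CPM (1.85), and Npas2 at 7.53, 16.1, 13 and 11.3 CPM (1.09). On the lower side, Per2 stood at 45 CPM in WT saline and 14.5 in KO saline (−1.64), and Cry1 at 20.9 and 7.97 CPM (−1.39). Tef and Hlf, relatives of Dbp, were lower by smaller amounts (−0.80 and −0.72), and Arntl itself stood at 24.9 and 17.4 CPM (−0.52). Clock genes thus differed in both directions within 1 cell type. The part of the hour of harvest in this pattern was not tested, since no source gives the hour.

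**Figure D3:**
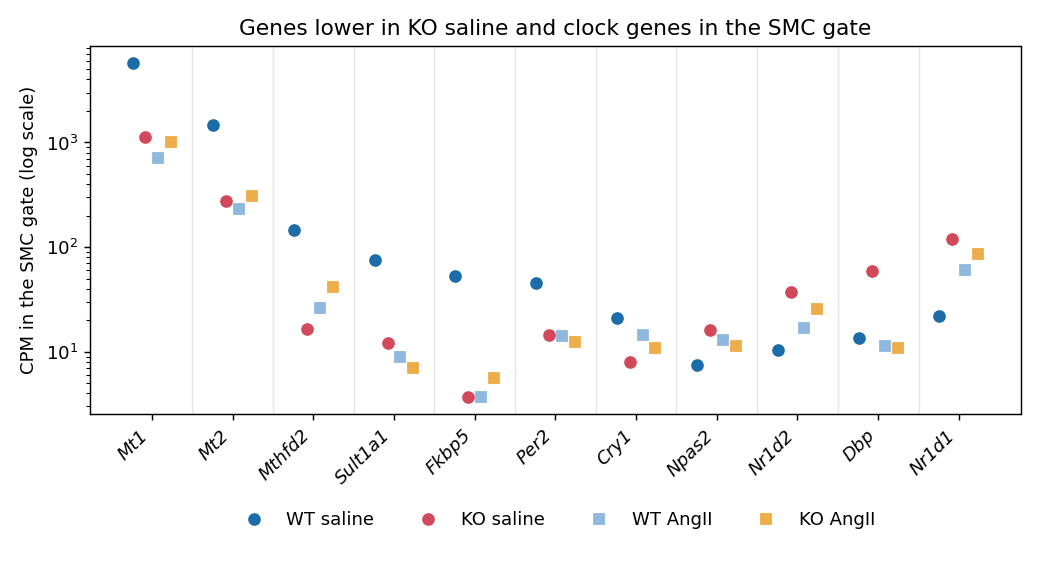
Levels (CPM, log scale) of 5 genes that were lower and of 6 clock genes in the SMC gate of the 4 libraries, 1 point a library. For Mt1, Mt2, Mthfd2, Sult1a1 and Fkbp5 the WT saline point lies above the other 3; Nr1d1 and Dbp are highest in KO saline.

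Other genes led the lower side in smooth muscle. Mthfd2, an enzyme of mitochondrial folate metabolism, stood at 146 CPM in WT saline, 16.4 in KO saline, 26.4 in WT AngII and 41.2 in KO AngII (−3.15). Grap, an adaptor of receptor signalling, stood at 26.6 and 4.84 CPM in the saline libraries (−2.46), and Fam107a at 15.4 and 1.87 CPM (−3.04). Cyp2b10 and Hif3a were lower from low levels (2.83 and 1.47 CPM in WT saline; −4.18 and −3.53). Of the 162 genes at least 2-fold lower in KO saline, 103 (63.6%) were at least 2-fold higher in WT saline than in each of the other 3 libraries, and for 11 (6.79%) KO saline was at least 2-fold below all others. Of the 184 genes at least 2-fold higher in KO saline, 66 (35.9%) were at least 2-fold lower in WT saline than in each of the other 3 libraries, 37 (20.1%) were at least 2-fold higher in KO saline than in each of the others, and 1 was both. Diet and infusion differ between the saline and AngII libraries, so these counts describe the levels only.

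The other named genes of the higher side had low levels. Esm1, a secreted proteoglycan known from endothelium, had 9 UMIs in WT saline and 127 in KO saline (log2 ratio 3.41, interval 2.44 to 4.57), and those of KO saline came from 56 cells. Kank4 stood at 0.736 and 5.20 CPM (2.82), Ppm1n at 1.13 and 5.62 CPM (2.31) and Mgat5b, a glycosyltransferase, at 0.699 and 3.55 CPM (2.34). Wasf1, a regulator of actin branching, stood at 0.340 and 1.95 CPM (2.52), Cdh16, a cadherin, at 0.208 and 1.45 CPM (2.80) and Fam184b at 0.151 and 1.41 CPM (3.22). These UMIs were spread over cells: Kank4 was found in 349 KO saline cells and Cdh16 in 100.

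Genes of 3 cellular programs were more often higher than lower in the SMC gate. Immediate early genes, transcription factors that answer within minutes to signals and to tissue digestion, were at least 1.5-fold higher in 15 of 28 members and lower in 1 (median 0.62). Fosl1 was at 1.30 and 4.19 CPM in WT and KO saline (1.69), Arc at 15.6 and 41.5 CPM (1.41), Fosb at 255 and 629.6 CPM (1.30) and Myc at 10.0 and 23.7 CPM (1.24). Cyr61, a matricellular target of YAP and serum response factor, was the lower member (1306 and 805 CPM, −0.70). Cholesterol synthesis genes, which sterol-sensing SREBP2 controls, were higher in 10 of 20 members and lower in 0 (median 0.61). Dhcr7, the last enzyme of the pathway (1.17), and the sterol sensor partner Insig1 (20.7 and 46.7 CPM, 1.17) had the largest ratios. Unfolded protein response genes, chaperones and enzymes of the endoplasmic reticulum, were higher in 6 of 17 members and lower in 0 (median 0.44), with Hyou1 at 1.09, Creld2 at 0.99, calreticulin (Calr) at 0.98 and Hsp90b1 at 0.79.

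Most genes of the contractile apparatus lay within 1.5-fold. Of 27 members 1 was at least 1.5-fold higher and 2 were lower, with a median of −0.02 and a range from −1.11 to 0.88. Among them were Myocd, the master coactivator of the contractile program (59.5 and 39.0 CPM, −0.61), and phospholamban (Pln, 6.93 and 12.8 CPM, 0.88). Lmod1, a nucleator of actin filaments, stood at −0.52. Nuclear genes of oxidative phosphorylation (31 compared, median 0.04) and ribosomal protein genes (30 compared, median 0.09) had no member past 1.5-fold, nor did the 13 genes of the mitochondrial genome (median −0.02). Among lipid handling genes 7 of 16 stood lower and 1 higher (median −0.13), among them the fatty acid carrier Fabp4 (523 and 113.5 CPM, −2.20), the cholesterol exporter Abca1 (−1.26) and the lipid droplet coat Plin4 (−1.22). Fabp4 is also abundant in endothelium and fat. Summed endothelial markers were lower in the same gate (92.4 and 29.5 CPM), but Pecam1 made up most of that sum (89.5 and 25.3 CPM). Of the others, all at low levels, Cldn5 was lower, and Cdh5, Vwf, Kdr, Tie1, Egfl7 and Emcn were higher. Cidea (42.46 and 27.45 CPM) made up nearly all of the adipocyte marker sum (42.9 and 27.6 CPM). The part of endothelial and fat RNA in the Fabp4 value was not tested.

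The STING pathway itself was nearly level in smooth muscle. Of 18 members compared 1 was at least 1.5-fold higher and 1 lower (median 0.01). The lower was Samhd1, a nuclease that destroys dNTPs (45.8 and 13.9 CPM, −1.72), and the higher was Nlrc3, a restrainer of STING signalling, at under 1 CPM in both libraries (0.68). Summed phagocyte markers in this gate stood at 106 and 22.8 CPM, and the part of phagocyte RNA in the Samhd1 value was not tested. Interferon-stimulated genes stood higher in 3 of 20 members and lower in 2 (median −0.01). Ifit3b (3.10 and 0.753 CPM, −2.04) and Ifit2 (9.14 and 5.11 CPM, −0.84) were the lower ones, and the GTPase Gbp7 (3.64 and 5.68 CPM, 0.64) and Cmpk2 (1.51 and 2.30 CPM, 0.61) the higher ones with the largest ratios. Of 10 NF-kB feedback genes 3 were higher: Irf1 (14.5 and 48.4 CPM, 1.74), the adhesion molecule Vcam1 (15.6 and 34.5 CPM, 1.15) and Nfkbia, named above.

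**Figure D4:**
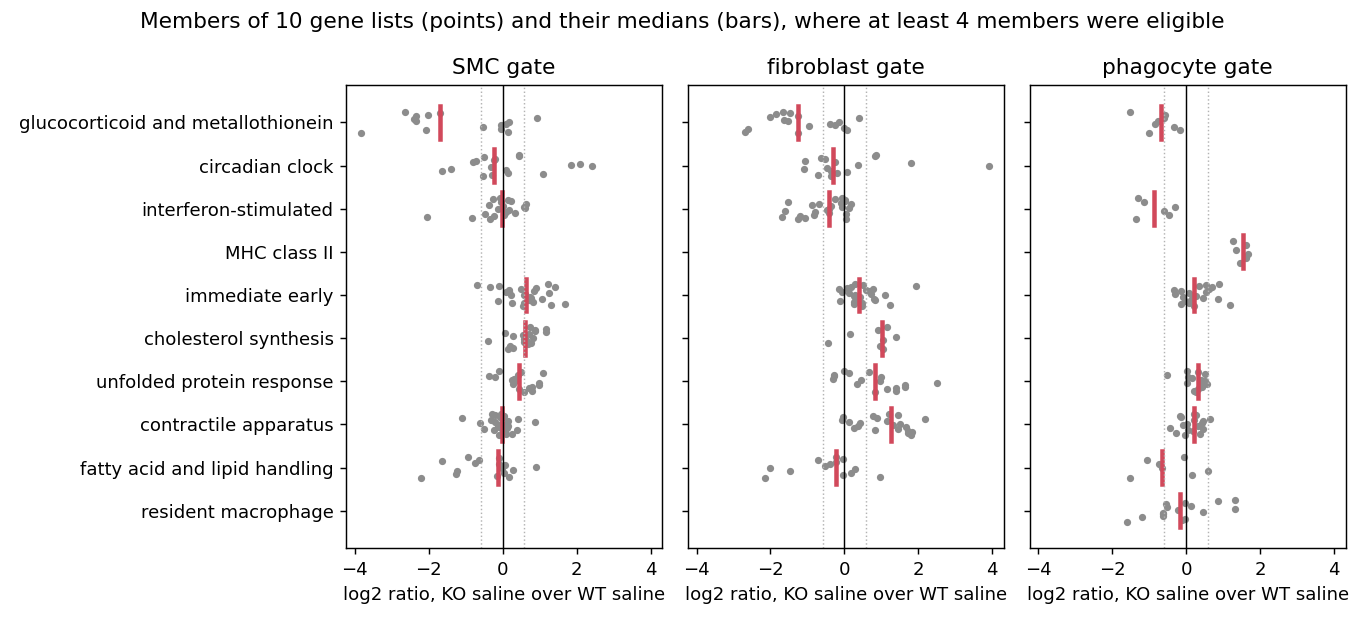
Log2 ratios of KO saline over WT saline for the compared members of 10 gene lists in the 3 gates (points, 1 a gene; lists with fewer than 4 compared members are left blank); red bars are list medians and dotted lines mark 1.5-fold. Glucocorticoid and metallothionein genes have medians of −1.69, −1.26 and −0.68 in the SMC, fibroblast and phagocyte gates, and the 6 MHC class II genes lie between 1.28 and 1.69 in phagocytes.

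Fibroblasts were compared from 1021 and 506 cells (4115061 and 2474969 UMIs). Of 7175 genes 201 (2.8%) were at least 2-fold higher in KO saline and 162 (2.26%) at least 2-fold lower; at 1.5-fold 10.3% were higher and 8.24% lower. Without the cells above 20 muscle UMIs the 2-fold counts were 131 and 117 of 6108 genes.

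The glucocorticoid and metallothionein list was lower here as well: 11 of 17 stood lower and 0 higher (median −1.26; −1.17 without the cells rich in muscle UMIs). Tsc22d3, the anti-inflammatory leucine zipper GILZ, stood at 772 CPM in WT saline, 120.4 in KO saline, 67.4 in WT AngII and 51.2 in KO AngII (−2.68, interval −2.86 to −2.51). Zbtb16, a zinc finger repressor, stood at 81.4, 13.3, 5.98 and 3.41 CPM (−2.61). Glutamine synthetase, Glul, stood at 1065 and 298 CPM in the saline libraries (−1.84), and Pdk4 at 27.7 and 6.87 CPM (−2.01). In each of these genes WT saline was the highest of the 4 libraries. Across the gate, 101 of the 162 lower genes (62.3%) were at least 2-fold higher in WT saline than in the other 3 libraries, against 5 (3.09%) in which KO saline stood below all others. The 201 higher genes were evenly split. In 60 (29.9%) WT saline was at least 2-fold below all others, in 61 (30.3%) KO saline was at least 2-fold above all others, and 1 was both.

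Further named genes were lower in fibroblasts. Angptl7, a secreted angiopoietin-like protein, stood at 1132 CPM in WT saline, 125 in KO saline, 30.6 in WT AngII and 10.4 in KO AngII (−3.18, interval −3.35 to −3.01), and was found in 56.2% and 22.1% of the saline cells. Fmo2 stood at 1041, 244, 121 and 39.9 CPM (−2.10), the glycosyltransferase Galnt15 at 315, 55.4, 10.4 and 3.33 CPM (−2.51) and Plac8 at 226, 45.7, 191 and 118 CPM (−2.31). Mrgprg, a receptor of the Mas-related family, had 303 UMIs in 55 WT saline cells and 11 UMIs in 7 KO saline cells (−4.05), and 0 with AngII. Tmem52 had 95 and 3 UMIs (−4.25). Of 25 resting fibroblast genes 6 were lower and 4 higher (median 0.07), so the list did not move as a whole; Sfrp4, a secreted Wnt antagonist, was at 536 and 1044 CPM (0.96).

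On the higher side, Nr1d1 stood at 5.59 CPM in WT saline and 84.8 in KO saline (3.92, interval 3.30 to 4.61), and Dbp at 28.9 and 101 CPM (1.80), as in smooth muscle. Cry1 stood at −1.10, Per2 at −1.09 and Hlf at −1.06. Cytoplasmic beta-actin, Actb, stood at 1365 and 7070 CPM (2.37, and 1.59 without the cells rich in muscle UMIs). It was also higher in the SMC gate (5703 and 9852 CPM, 0.79) and in the phagocyte gate (1.13). Several other large ratios rested on few cells. H19 had 123 UMIs in KO saline, of which 69.1% lay in 1 cell, and its direction turned with stricter gates (−0.48). The cartilage matrix gene Comp (2.53) had 78.0% of its KO saline UMIs in 5 cells, the Wnt inhibitor Wif1 (3.73) 56.8% and the growth factor Ptn (2.83) 70.1%.

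Unfolded protein response genes were higher in 10 of 17 members and lower in 0 (median 0.83; 0.79 without the cells rich in muscle UMIs). Sdf2l1, a partner of the chaperone BiP, stood at 18.2 CPM in WT saline, 104 in KO saline, 97.0 in WT AngII and 96.3 in KO AngII (2.51). Pdia6 and Pdia4, disulfide isomerases, stood at 1.65 and 1.4, and Calr at 1.64 (239 and 746 CPM). For these 4 genes KO saline was near both AngII libraries or between them and WT saline. In cholesterol synthesis 6 of 8 members stood higher and 0 lower, at a median of 1.01 (4 of 6 higher and 1 lower without the cells rich in muscle UMIs), with Msmo1 at 1.41, Srebf2, the gene of SREBP2, at 1.16, and Hmgcs1 and Fdps both at 1.05. Immediate early genes were higher in 8 of 26 members (median 0.40). Of the contractile genes 16 of 22 stood higher and 0 lower (median 1.26), led by Kcnmb1 at 2.18, Cnn1 at 1.83 and Actg2 at 1.80. Without the cells rich in muscle UMIs 2 of 16 contractile genes were higher and the median was 0.32. Cytokine genes were higher in 4 of 10 members and lower in 0; the monocyte chemokine Ccl2 stood at 75.8 and 229 CPM (1.59), with 46.0% of its KO saline UMIs and 54.5% of its WT saline UMIs in 1 cell. Collagen and fibrosis genes went both ways (4 of 24 higher and 5 lower, median −0.02), and Ctgf was lowest (723 and 276 CPM, −1.39).

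In KO saline fibroblasts 10 of 24 interferon-stimulated genes stood lower and 0 higher, with a median of −0.41 where that over all genes was 0.03. Without the cells rich in muscle UMIs 6 of 17 were lower and 0 higher (median −0.23). Ifit3, an antiviral RNA-binding protein, stood at 71.0 CPM in WT saline, 21.8 in KO saline, 62.5 in WT AngII and 3.65 in KO AngII (−1.70, interval −2.15 to −1.28). Usp18, which removes ISG15 from proteins, stood at 26.0, 8.48, 20.2 and 1.14 CPM (−1.62). The GTPase gene Iigp1 stood at 20.9, 7.27, 33.9 and 1.70 CPM (−1.52), and Ifit1 at 61.7, 25.9, 79.4 and 6.33 CPM (−1.25). In all 4 genes both KO libraries were below both WT libraries. Isg15 differed: it stood at 34.8, 35.6, 139 and 8.85 CPM, with a saline ratio of 0.03. The difference was carried by few cells, since Ifit1 was found in 7.93% of WT saline and 5.14% of KO saline fibroblasts and Ifit3 in 11.1% and 5.53%. Ifit3 and Ifit3b are near-identical neighbours, so the split of reads between them is uncertain.

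Promoters of Ifit1 and Ifit3, lower in both KO libraries, and of Isg15, level in saline, are set side by side (250 bases before the RefSeq start, GRCm38.p6, 5′ to 3′ on the gene's strand). Capitals mark matches to GAAANNGAAA on either strand, a core of the interferon-stimulated response element.
Ifit1: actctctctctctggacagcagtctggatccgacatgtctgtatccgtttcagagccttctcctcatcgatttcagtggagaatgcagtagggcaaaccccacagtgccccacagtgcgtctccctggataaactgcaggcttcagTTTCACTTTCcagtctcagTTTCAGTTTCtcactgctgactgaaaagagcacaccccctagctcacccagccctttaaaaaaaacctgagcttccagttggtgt
Ifit3: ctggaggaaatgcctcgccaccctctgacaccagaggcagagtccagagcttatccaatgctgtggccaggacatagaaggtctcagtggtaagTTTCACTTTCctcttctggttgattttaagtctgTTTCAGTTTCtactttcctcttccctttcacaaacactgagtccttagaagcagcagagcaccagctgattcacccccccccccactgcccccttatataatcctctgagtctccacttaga
Isg15: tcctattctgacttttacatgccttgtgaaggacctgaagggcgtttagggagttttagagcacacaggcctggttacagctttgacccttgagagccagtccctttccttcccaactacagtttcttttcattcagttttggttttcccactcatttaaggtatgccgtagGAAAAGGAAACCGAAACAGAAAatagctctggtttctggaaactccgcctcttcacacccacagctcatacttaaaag
Ifit1 (chr19:34640639-34640888, plus strand) and Ifit3 (chr19:34583279-34583528, plus strand) each hold 2 separate matches, and Isg15 (chr4:156200819-156201068, minus strand) holds 3 that overlap in 1 run. At least 1 match lies in 2.71% of the 12443 promoters and more than 1 in 0.217%. Ifit2, which was also lower in both treatments (−1.07 in saline and −2.08 in AngII), has 0 matches in either of its RefSeq windows. Matches were thus found in the level gene as well as in lower ones, and not in every lower one.

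**Figure D5:**
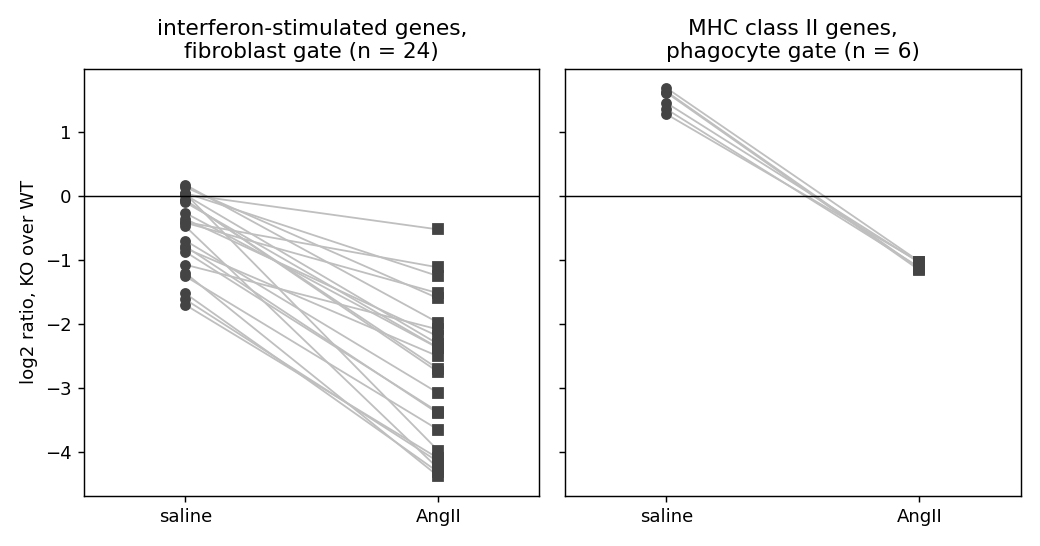
Log2 ratios of KO over WT for single genes (points joined by lines) in saline and in AngII, for 24 interferon-stimulated genes in the fibroblast gate and 6 MHC class II genes in the phagocyte gate. The interferon medians are −0.41 in saline and −2.60 in AngII; the MHC class II medians are 1.53 and −1.08.

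Phagocytes were compared from 285 and 83 cells (1526242 and 479699 UMIs), the smallest set. Of 2083 genes 35 (1.68%) were at least 2-fold higher in KO saline and 31 (1.49%) at least 2-fold lower; at 1.5-fold 7.06% were higher and 6.34% lower. MHC class II genes, which present antigen to helper T cells, were higher in 6 of 6 members compared (median 1.53). H2-Ab1, a class II beta chain, stood at 653 CPM in WT saline, 2018 in KO saline, 1634 in WT AngII and 745 in KO AngII (1.63, interval 1.5 to 1.76). H2-Eb1 stood at 562, 1805, 1220 and 600 CPM (1.69). The invariant chain Cd74 stood at 3239, 7842, 4825 and 2366 CPM (1.28), H2-DMb1, which loads peptides, at 68.1 and 208 CPM in the saline libraries (1.61). KO saline was the highest of the 4 libraries for each. H2-Ab1 was found in 34.4% of WT saline and 50.6% of KO saline cells of the gate, and 48.5% of its KO saline UMIs lay in 5 of the 83 cells.

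Genes of resident macrophages differed in both directions: 3 of 16 were higher and 5 lower (median −0.16). The hyaluronan receptor Lyve1 stood at 1797 CPM in WT saline, 598 in KO saline, 213 in WT AngII and 335 in KO AngII (−1.59), and was found in 93.3% and 63.9% of the saline cells. The haemoglobin scavenger receptor Cd163 stood at 803 and 348 CPM (−1.21). Retnla, a secreted product of alternatively activated macrophages, stood at 1604 and 4038 CPM (1.33) and the lectin Cd209f at 309 and 771 CPM (1.32). Its relative Cd209d was also higher (38.7 and 175 CPM, 2.18). Few cells held many of these UMIs. For Retnla, 5 cells held 50.4% of the WT saline and 72.7% of the KO saline UMIs of the gate. For Cd209d, 5 cells held 59.3% and 51.2%.

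Among phagocytes 4 of 6 interferon-stimulated genes compared stood lower and 0 higher (median −0.87). Ifi27l2a, the most abundant, stood at 4252 CPM in WT saline, 1659 in KO saline, 3780 in WT AngII and 3152 in KO AngII (−1.36, interval −1.47 to −1.25). Trim30a (93.0 and 37.5 CPM, −1.31) and Lgals3bp (110.1 and 50.0 CPM, −1.14) followed. The DNA sensor Ifi204 of the STING pathway list was lower in saline (129 and 50.0 CPM, −1.37) and in AngII (95.9 and 33.6 CPM). In cells of 1 gate only the interferon median was −0.55, and in cells of 4000 to 8000 UMIs it was −0.51. Of the glucocorticoid and metallothionein genes 5 of 8 stood lower and 0 higher (median −0.68), with Sult1a1 at −1.53, Tsc22d3 at −0.99, Mt1 at −0.83 and Mt2 at −0.76.

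Pam, an enzyme that amidates peptide hormones, had the largest higher ratio in phagocytes: 126 CPM in WT saline, 1436 in KO saline, 184 in WT AngII and 120 in KO AngII (3.51, interval 3.28 to 3.75). It was found in 59 of 285 and 54 of 83 cells, and 7.69% of its KO saline UMIs lay in 1 cell. In the SMC gate Pam stood at 924 and 2065 CPM (1.16), above its level in the phagocyte gate, and the part of SMC RNA in the phagocyte value was not tested. Il1b, the inflammasome cytokine, stood at 130 and 463 CPM (1.83), but 59.0% of its KO saline UMIs lay in 1 cell and in cells of 4000 to 8000 UMIs its ratio was 0.27. Tmsb10, an actin-binding peptide, stood at 136 and 480 CPM (1.82), with 31.7% of its KO saline UMIs in 1 cell and a ratio of 0.14 in cells of 4000 to 8000 UMIs. Of 13 inflammatory cytokine and chemokine genes compared, 4 were at least 1.5-fold higher and 2 lower (median 0.435). Tnf (266 and 129 CPM, −1.04) and the neutrophil chemokine Cxcl2 (5823 and 2979 CPM, −0.97) were lower. Ms4a6c (−1.75), Ms4a6b (−1.41) and the chemokine Ccl6 (−1.24) were also lower. Genes of the Ms4a6, Cd209 and H2 families have close relatives, and reads may be divided among them.

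Summed over whole libraries, 168 of 12774 genes (1.32%) were at least 2-fold higher in KO saline and 547 (4.28%) at least 2-fold lower. In these sums fewer cells of a type and less RNA per cell cannot be told apart. Summed phagocyte markers were at 830 and 168 CPM, endothelial markers at 145 and 54.7 CPM and pericyte markers at 458 and 675 CPM of WT and KO saline. Pecam1 alone gave 115 and 35.2 CPM of the endothelial sum, and Rgs5 alone gave 181 and 375 CPM of the pericyte sum. Nr1d1, Kank4, Cdh16, Esm1 and Fam184b led the higher side, as in smooth muscle. The genes with the largest lower ratios were held by single cells or small sets. Cfd, the adipocyte protease adipsin, had 287 UMIs in WT saline, 96.2% of them in 1 cell, and 0 in KO saline, which is at least 122-fold lower against a floor of 3 UMIs. Car3, a carbonic anhydrase of fat and muscle, had 114 UMIs, 92.1% of them in 1 cell, and 0 in KO saline (at least 48.6-fold lower). The lymphatic chemokine Ccl21a, which has near-identical copies, had 244 UMIs, 76.6% of them in 1 cell, and 0 in KO saline (at least 104-fold lower). Gnrhr, the receptor of gonadotropin-releasing hormone, differed from these: its 65 UMIs in WT saline lay in 55 cells, 45 of them in the fibroblast gate, and it had 0 UMIs in KO saline (at least 27.7-fold lower) and in both AngII libraries.

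Differences between KO and WT in saline were last set beside those in AngII, which share no library. In smooth muscle, of 11372 genes compared in both, 12 were at least 2-fold higher in KO in both treatments, 10 lower in both and 10 went opposite ways. Of all 11372, 298 were past 2-fold in saline and 180 in AngII. Genes with the same direction were 7.38% of these saline genes and 12.2% of these AngII genes. The higher ones included Insig1 (1.17 and 1.28 in saline and AngII), Fosl1 (1.69 and 1.20) and the prostaglandin receptor Ptger3 (1.89 and 1.56). In fibroblasts, of 7103 genes, 325 were past 2-fold in saline and 297 in AngII. Here 13 were higher in both, 36 lower in both and 12 opposite (15.1% of the saline and 16.5% of the AngII genes in the same direction). The 36 lower genes held 6 interferon-stimulated genes (Ifit1, Ifit2, Ifit3, Ifit3b, Usp18 and Iigp1) and the fibroblast genes Angptl7, Fmo2 and Inmt. The 13 higher ones held Fdps, Msmo1 and Hmgcs1 of cholesterol synthesis together with Ptgs2 and Hbegf. In phagocytes, of 2079 genes, 65 were past 2-fold in saline and 41 in AngII. Of these, 4 were higher in both, 2 lower in both and 10 went opposite ways. Genes with the same direction were 9.23% of the saline and 14.6% of the AngII genes. The glucocorticoid and metallothionein list did not carry over in smooth muscle, with a median of −1.69 in saline and 0.29 in AngII, whereas cholesterol synthesis had 0.61 and 1.0. The saline and AngII differences were not compared by a test.

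A pair of genes on chromosome 19 stood about 2-fold lower in KO in both treatments. Ide, which encodes insulin-degrading enzyme (37268743 to 37337852, minus strand, GRCm38), stood at 51.0 CPM in WT saline and 24.2 in KO saline of the SMC gate (−1.07, interval −1.16 to −0.98), with −1.20 in AngII. In fibroblasts its ratios were −1.22 and −1.11. Fgfbp3, a carrier of fibroblast growth factors (36917550 to 36919615, minus strand), had 274 and 181 UMIs in the saline SMC gates (−1.01, interval −1.29 to −0.73) and a ratio of −1.39 in AngII. The 3 genes between them, Btaf1, Cpeb3 and March5, had saline ratios of −0.06, 0.27 and 0.02. With these 3 included, 14 genes besides Ide and Fgfbp3 were compared up to 1 Mb on either side of the pair. Their ratios ranged from −1.21 to 0.33 in saline (median 0.02) and from −0.24 to 1.02 in AngII. The lowest of these was Fra10ac1 (−1.21), which stood at −0.10 in AngII. Both genes were chosen after their values were seen. Ide also belonged to a list of C57BL/6 substrain genes, of which 4 were compared in the SMC gate. At 1.5-fold 1 of these was lower and 0 higher in saline, and 2 were lower and 1 higher in AngII. No source used here gives the strain, so the part of strain background in the Ide and Fgfbp3 values was not tested.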

How the data were processed

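For each library the authors deposited raw UMI counts, 1 value for each gene in each cell, whole and not normalized, as the values show. Cell Ranger and mm10 are named per the submitters' processing notes; no source used here gives its version, the annotation or a cell filter. Viable cells were sorted with DAPI, per the labels' protocols. Counts were summed per gate; doublets were not removed, and cells passing the SMC and phagocyte gates together (34 and 18) counted in both. A gene was compared where its mean CPM times the smaller UMI total gave at least 30 UMIs and its CPM in the higher library was at least 0.1 of its highest CPM in any gate. Ratios have exact conditional intervals, levels Poisson and shares Clopper-Pearson intervals (SciPy 1.17.1); genes at 0 take a floor of 3 UMIs. Scripts were tested on simulated counts.

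Named genes were those whose interval ended farthest from 0: 10 higher and 10 lower in the SMC gate, 8 and 8 in fibroblasts, 6 and 6 in phagocytes and 5 and 5 in the library, without mitochondrial, ribosomal, unnamed, sex-linked and gate genes, plus the 4 members of each list farthest from 0 and Tmem173. Members and lists were chosen with earlier results of these data known, and other genes named were chosen after their values were seen. Alternatives were TMM (edgeR 4.0.16) and median-of-ratios scaling, other minimums, cell filters, depth windows, gates and weights. Positions are from GENCODE M21; 12443 genes matched a RefSeq promoter. Some genes that the rule names are not reported here.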

Additional observations from a re-analysis of the deposited data

Results flagged for a closer look

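Some genes were at least 2-fold apart in opposite directions in saline and AngII; the difference between treatments was not tested. In the SMC gate Fam184b had a log2 ratio of KO over WT of 3.22 in saline and −1.08 in AngII. In the fibroblast gate Wif1 had 3.73 and −1.07 and Ptn 2.83 and −1.47; 37.5% and 37.8% of their KO saline UMIs lay in 1 cell. In the phagocyte gate H2-Eb1 had 1.69 and −1.02 and H2-Ab1 1.63 and −1.13, and the MHC class II median was 1.53 in saline and −1.08 in AngII, with all 6 members on the same side in each. The saline values of this gate rest on 285 WT and 83 KO cells.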

How the results depend on the processing

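No paired analysis was possible because each group is 1 library. TMM and median-of-ratios scaling moved all ratios by at most 0.05 and changed no count by over 1.5 times. The UMI minimum set the 2-fold counts most. With at least 10 expected UMIs 295 genes were higher in the library, 302 higher and 259 lower in SMC, 426 and 334 in fibroblasts and 168 and 147 in phagocytes; with 100 they were 109 higher and 311 lower in the library, 105 higher in SMC, 87 and 65 in fibroblasts and 13 and 13 in phagocytes. In cells of 4000 to 8000 UMIs 70 and 69 fibroblast genes and 20 lower phagocyte genes were past 2-fold. With each cell weighted equally phagocytes had 111 higher and 49 lower genes. Stricter gates left 118 higher genes in fibroblasts and 15 lower in phagocytes, and turned H19 to −0.48. Fibroblasts without cells above 20 muscle UMIs had 131 higher genes, and phagocytes with at most 1 Myh11 UMI had 20 lower genes (both limits were chosen after seeing the data).

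The contractile median in fibroblasts was 0.12 with a free RNA limit of 0.25, 0.40 in cells of 4000 to 8000 UMIs, 0.38 with stricter gates and 0.32 without cells rich in muscle UMIs. The interferon median was −0.65 in fibroblasts with cells weighted equally, and in phagocytes −0.45 with 100 expected UMIs, −0.55 in cells of 1 gate and −0.51 in cells of 4000 to 8000 UMIs. Other list medians kept their side of 1.5-fold under every alternative run. The KO over WT share of cells was 0.902 for SMC and 0.297 for fibroblasts with stricter gates, 1.09 and 0.33 with gates on CPM, and 0.478 for fibroblasts thinned to 3000 UMIs. Of the log2 ratios of single genes, 669 recomputed values lay inside the counting interval, 78 outside it in the same direction and 1, that of H19, turned. The causes were not tested. Depth limits phagocytes most, with 83 cells in KO saline.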

Other observations

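Genes outside the groups described above also stood apart in the saline libraries. In the SMC gate Ibsp, a bone matrix sialoprotein, stood at 4.08 CPM in WT saline and 0.809 in KO saline (log2 ratio −2.33), Omd, a small leucine-rich proteoglycan of bone, at 36.4 and 9.97 CPM (−1.87), and the matrix glycoprotein Sparc at 5123 and 2926 CPM (−0.81). The p53-inducible autophagy gene Trp53inp1 was lower in SMC (112 and 30.6 CPM, −1.88) and in fibroblasts (45.7 and 14.9 CPM, −1.61). Adrenomedullin, Adm, a vasodilator peptide, was lower in both gates as well (58.9 and 28.3 CPM, −1.05; 213 and 77.6 CPM, −1.46). Tnfrsf11b, the decoy receptor osteoprotegerin, was higher in both (8 and 22.2 CPM, 1.47; 28.2 and 70.3 CPM, 1.32). The TGF-beta coreceptor Tgfbr3 was lower in fibroblasts (237 and 96.6 CPM, −1.30), and the Wnt antagonist Sfrp2 higher in the SMC gate (85.4 and 231 CPM, 1.44). Summed fibroblast markers in the SMC gate stood at 1139 and 1418 CPM. Among them Lum stood at 21.05 and 43.89 CPM and Serpinf1 at 22.92 and 52.62 CPM. Pdgfra alone was lower (10.52 and 9.627 CPM). The part of fibroblast RNA in the Sfrp2 value was not tested.

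Y-linked transcripts were found in both saline libraries; in the SMC gate Ddx3y stood at 142 and 123 CPM, Eif2s3y at 54.1 and 39.1 CPM, Uty at 15.6 and 13.9 CPM and Kdm5d at 8.70 and 6.94 CPM.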
